A study of Mus musculus with 2 samples.

Results

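The nuclear factor I (NFI) and nuclear factor of activated T cells (NFAT) genes were compared between primary mouse chondrocytes and primary mouse dermal fibroblasts. They were found by their symbols in the deposited count table, *Nfia*, *Nfib*, *Nfic* and *Nfix* for NFI and *Nfatc1*, *Nfatc2*, *Nfatc3*, *Nfatc4* and *Nfat5* for NFAT, which is 9 of its 24421 genes. The chondrocytes came from rib cartilage of newborn mice, digested with collagenase and used within 2 passages, and the fibroblasts came from dorsal skin of newborn mice. Neither cell type was treated or carried a described allele. Each was represented by 1 RNA-Seq library, with 18788599 counted reads for chondrocytes and 17563724 for dermal fibroblasts. The comparison served the study to find transcription factors that are more highly expressed in chondrocytes. With 1 library per cell type, each gene has 1 value per cell type, no difference has a replicate check, and no p-value was computed. The intervals given are 95% intervals of the counting error alone, since the reads carried no molecular identifiers and nothing was measured of the variation between animals or cultures.

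NFI proteins bind DNA as dimers at a palindrome built of the core TTGGC and act during the differentiation of glia, muscle, lung, tooth and skin. *Nfix* drives the fetal program in skeletal muscle, *Nfic* is required for tooth root formation, *Nfib* maintains stem cells of the hair follicle, and *Nfia* acts with Sox9 in the formation of glia. NFAT proteins share a Rel-like DNA-binding domain that recognises the core GGAAA. Calcium entry activates the phosphatase calcineurin, which removes phosphates from the products of *Nfatc1* to *Nfatc4* and lets them enter the nucleus, and kinases return them to the cytoplasm. *Nfat5* lacks the calcineurin docking region and responds to osmotic stress, to which cartilage cells are exposed in their charged matrix. *Nfatc1* is the master regulator of osteoclasts and marks progenitors of articular cartilage, and loss of *Nfatc2* in mice is known for its effects on adult cartilage.

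The libraries carried the markers of their labels. All 8 chondrocyte markers examined (among them *Col2a1*, *Acan* and *Sox9*) were over 2-fold higher in chondrocytes, where their scaled level (CPM, counts per 1000000 reads) summed to 109188 against 66.4, and 7 of 8 fibroblast markers (among them *Col1a1* and *Pdgfra*) were over 2-fold higher in dermal fibroblasts. CPM are read counts relative to library size after TMM scaling, a trimmed mean that sets the bulk of genes equal between the libraries. Skeletal muscle transcripts were present in both libraries, with all 10 markers at 100 counts or more in each and a sum of 2120 CPM in chondrocytes and 1456 CPM in dermal fibroblasts. Endothelial markers summed to 20.4 and 63.3 CPM, keratinocyte markers to 9.21 and 249 CPM, macrophage markers to 116 and 181 CPM, and Schwann cell markers to 173 and 74.1 CPM.

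Among the 9 genes, only *Nfatc4* passed the 2-fold threshold of the study, and it was higher in dermal fibroblasts. The study also states a threshold on the false discovery rate, which was not applied here. None of the 9 was over 2-fold higher in chondrocytes, where 11.8% of the 14291 genes with at least 10 counts in 1 library were. The 1 of 9 over 2-fold higher in dermal fibroblasts stands beside 16.2% of those genes. Both counts are close to what all genes gave, and 5 of the 9 lay within 1.5-fold, against 55.5% of all genes. Every one of the 9 had at least 10 counts in both libraries, and 8 had at least 100. The counting interval excluded a fold of 1 for 5 genes (*Nfia*, *Nfic*, *Nfatc1*, *Nfatc4* and *Nfat5*) and included it for the other 4. In bulk RNA, fewer cells that express a gene and less of its RNA per cell cannot be told apart.

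**Figure D1:**
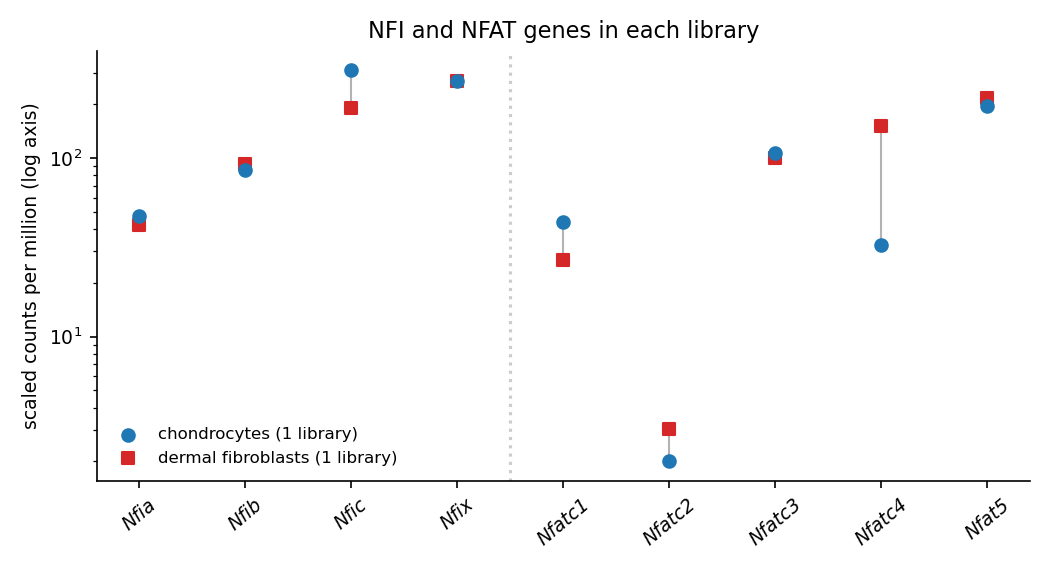
Scaled level (CPM, log axis) of each NFI gene (left of the dotted line) and NFAT gene in the chondrocyte library (circles) and the dermal fibroblast library (squares), 1 library each. *Nfatc4* shows the widest gap, 32.7 against 151 CPM, while *Nfix* lies at 271 CPM in both.

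**Figure D2:**
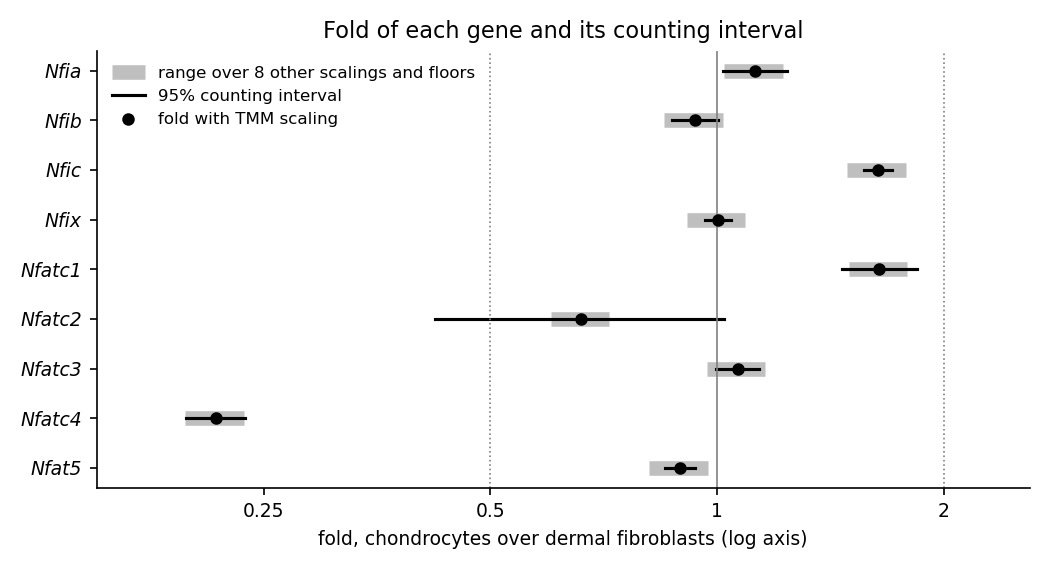
Fold of each gene, chondrocytes over dermal fibroblasts, on a log axis. Points are the folds with TMM scaling, black lines the 95% counting intervals, grey bars the range over 8 other scalings, floors and the pseudocount, and dotted lines mark 2-fold. *Nfatc4*, at 0.216, is the only gene beyond a dotted line.

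**Figure D3:**
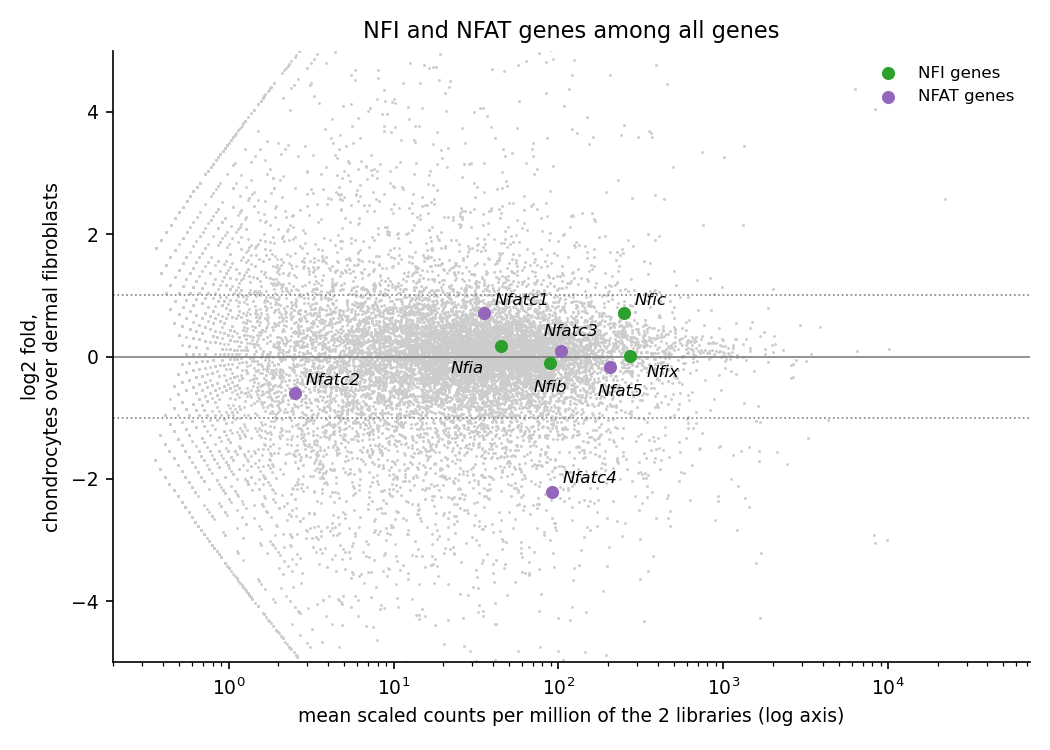
Log2 fold of the 14291 genes with at least 10 counts in 1 library (grey) against their mean scaled level (CPM, log axis), with NFI genes in green and NFAT genes in purple. Dotted lines mark 2-fold, and 149 genes lie beyond the vertical axis. *Nfatc4* lies below the lower dotted line and the other 8 genes lie between the lines.

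*Nfix* and *Nfic* were the most abundant NFI genes in both libraries. *Nfix* (GRCm38 chromosome 8, 84704712 to 84801238) had 4857 counts in chondrocytes against 4980 in dermal fibroblasts. Its scaled level was 271 CPM in each library, and its fold, chondrocytes over dermal fibroblasts, was 1.002 (interval 0.963 to 1.04), which ran from 0.912 to 1.09 over the other scalings. In chondrocytes 96.2% of the genes lay below it, and in dermal fibroblasts 96.2% as well. *Nfic* (chromosome 10, 81396191 to 81431919) had 5563 counts in chondrocytes against 3496 in dermal fibroblasts, or 310 and 190 CPM. It was the NFI gene that differed most, 1.63-fold higher in chondrocytes (interval 1.57 to 1.71), and 16.9% of all genes had a higher fold.

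The other two NFI genes were less abundant and lay closer between the libraries. *Nfib* (chromosome 4, 82290173 to 82506751) had 1545 counts in chondrocytes against 1697 in dermal fibroblasts. Its level was 86.2 CPM against 92.2 CPM, a fold of 0.935 whose interval, 0.872 to 1.002, reached just past equality, and the direction turned with *Actb* scaling (1.02). *Nfia* (chromosome 4, 97578066 to 98118876) had 847 counts and 775 counts, or 47.3 and 42.1 CPM. Its fold of 1.12 had an interval from 1.02 to 1.24, so the difference exceeded the counting error but is small beside the shift that scaling alone can give (1.02-fold with total counts, 1.22-fold with *Actb*). Added together, the 4 NFI genes had 12812 counts in chondrocytes against 10948 in dermal fibroblasts, and their fold was 1.20 (interval 1.17 to 1.23). This sum joins unlike folds, *Nfic* at 1.63 with *Nfia* at 1.12, *Nfix* at 1.002 and *Nfib* at 0.935. *Nfic* gave 5563 and 3496 of the counts, so the sum does not show a rise of the whole family.

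The make-up of the NFI family needs no scaling between libraries, since each share is taken within 1 library. *Nfic* took 43.4% of the NFI counts in chondrocytes (Clopper-Pearson interval 42.6 to 44.3%) and 31.9% in dermal fibroblasts (31.1 to 32.8%). *Nfix* took 37.9% (37.1 to 38.8%) and 45.5% (44.6 to 46.4%). The leading NFI gene by counts was therefore *Nfic* in chondrocytes and *Nfix* in dermal fibroblasts. The ratio of *Nfic* to *Nfix* counts was 1.15 in chondrocytes against 0.702 in dermal fibroblasts, which differ 1.63-fold (exact interval 1.54 to 1.73). *Nfib* took 12.1% and 15.5%, and *Nfia* took 6.61% and 7.08%. The ratio of *Nfib* to *Nfix* was 0.318 and 0.341, and the interval of the ratio between libraries, 0.861 to 1.01, included equality.

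*Nfatc4* was the gene of the 9 that separated the libraries. It lies on the plus strand of chromosome 14 (GRCm38, 55824795 to 55833943), spans 9149 bp and overlaps no other RefSeq gene. It had 586 counts in chondrocytes against 2786 counts in dermal fibroblasts. Its level was 32.7 CPM in chondrocytes and 151 CPM in dermal fibroblasts, and it was higher in dermal fibroblasts by 4.63-fold, with an interval from 4.23 to 5.07. The whole interval lay beyond 2-fold. Of all genes tested, 5.29% had a lower fold of chondrocytes over dermal fibroblasts. In rank, 61.5% of genes lay below it in chondrocytes against 92.1% in dermal fibroblasts. In dermal fibroblasts the fibroblast, endothelial and keratinocyte markers were also higher. Over 2-fold were 7 of 8 fibroblast markers, 7 of 8 endothelial markers (366 counts in all against 1166) and 5 of 7 keratinocyte markers with at least 10 counts (165 counts in all 8 against 4591), and none of the markers of these 3 lists was at 0 in either library. Their part in the *Nfatc4* difference was not tested.

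The start regions of *Nfatc4* and *Nfic* are shown because these are the NFAT and NFI genes with the widest folds among the 7 of 9 that have an entry in the RefSeq promoter table (GRCm38.p6, 250 bases before to 50 after the annotated start). *Nfatc4* is chr14:55824545-55824844 on the plus strand and *Nfic* is chr10:81427124-81427423 on the minus strand, at a start inside the span of the gene. Each is written 5′ to 3′ on the strand of the gene, with matches to the NFI core TTGGC or the NFAT core GGAAA, on either strand, in capitals.
Nfatc4: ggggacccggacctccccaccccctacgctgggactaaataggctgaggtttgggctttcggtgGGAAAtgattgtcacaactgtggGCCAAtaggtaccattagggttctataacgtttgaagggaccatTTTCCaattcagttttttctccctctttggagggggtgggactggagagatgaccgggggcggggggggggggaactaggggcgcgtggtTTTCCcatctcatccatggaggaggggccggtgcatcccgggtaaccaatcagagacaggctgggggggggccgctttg
Nfic: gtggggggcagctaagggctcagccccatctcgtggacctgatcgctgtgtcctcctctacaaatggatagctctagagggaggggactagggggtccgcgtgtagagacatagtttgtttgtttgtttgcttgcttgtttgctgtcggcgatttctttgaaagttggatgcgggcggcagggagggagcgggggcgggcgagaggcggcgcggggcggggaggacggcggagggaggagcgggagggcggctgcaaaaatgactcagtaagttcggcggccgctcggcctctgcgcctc
The *Nfatc4* region holds 3 NFAT cores, which begin at positions -186, -119 and -29 from the annotated start, and 1 NFI core at position -163. The *Nfic* region holds none of these letters. Of 32851 RefSeq promoters of the same length, 61.3% hold at least 1 NFAT core, 9.42% hold 3 or more, and 46.7% hold at least 1 NFI core. The 2 motifs share no overlapping bases in the *Nfatc4* region. Over the 12 promoters of the 7 genes, 7 hold an NFAT core, 7 hold an NFI core, and 0 hold the full NFI palindrome, which 0.0365% of all promoters hold. Such matches are letters in a window and not binding sites.

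*Nfat5*, the tonicity-responsive member, had the most counts of the NFAT genes. It lies on chromosome 8 (107293435 to 107379517) and had 3488 counts in chondrocytes against 4011 in dermal fibroblasts. These are 195 and 218 CPM, and the fold was 0.893 (interval 0.853 to 0.935), so it was slightly higher in dermal fibroblasts and beyond the counting error. With other scalings the fold of *Nfat5* ran from 0.813 (total counts) to 0.972 (*Actb*), so the size of this small difference depends on the scaling. *Nfatc3* (chromosome 8, 106058818 to 106130537) had 1908 and 1841 counts, or 106 and 99.999 CPM. Its fold of 1.06 (interval 0.998 to 1.14) did not exceed the counting error, and the direction turned with total-count scaling (0.969). Among the 9 genes, *Nfix*, *Nfatc3*, *Nfib*, *Nfia* and *Nfat5* lay within 1.5-fold.

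*Nfatc1* was the NFAT gene with the highest fold toward chondrocytes. It lies on chromosome 18 (80606205 to 80713071) and had 788 counts in chondrocytes against 493 in dermal fibroblasts. Its level was 44.0 CPM against 26.8 CPM, a fold of 1.64 (interval 1.47 to 1.84) that did not reach the 2-fold threshold. Endothelial cells and osteoclast precursors also express *Nfatc1*, and the endothelial and macrophage markers were lower in the chondrocyte library, where it was higher. All 8 endothelial markers and all 8 macrophage markers had a fold below 1, with none at 0 in either library. Skeletal muscle markers lay on the side of *Nfatc1*, with 5 of 10 over 2-fold higher in chondrocytes, a median log2 fold of 0.84 and none at 0 in either library. The part of these cell types in the *Nfatc1* level was not tested.

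*Nfatc2* (chromosome 2, 168476410 to 168601657), best known from T cells, was scarce. It had 36 counts in chondrocytes against 56 in dermal fibroblasts, or 2.01 and 3.04 CPM, against 0.163 to 0.167 CPM for 3 counts in these libraries. The fold of 0.660 had an interval from 0.422 to 1.02, so a difference was not detectable at this depth. T cell markers summed to 29 counts in chondrocytes against 68 in dermal fibroblasts over the 7 found in the table, and *Cd3e*, *Cd3d*, *Cd3g* and *Cd8a* were at 0 in both libraries.

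Without *Nfatc4*, the summed counts of the NFAT family did not differ between the libraries beyond the counting error with TMM scaling. The 5 NFAT genes together had 6806 counts in chondrocytes against 9187 in dermal fibroblasts, and their fold was 0.761 (interval 0.737 to 0.785). The 4 genes other than *Nfatc4* had 6220 and 6401 counts, a fold of 0.998 (interval 0.964 to 1.03). This sum joins opposite differences beyond the counting error, *Nfatc1* at 1.64 and *Nfat5* at 0.893. *Nfat5* gave 3488 of the 6220 counts in chondrocytes. Among the calcineurin-regulated genes *Nfatc1* to *Nfatc4*, *Nfatc4* took 17.7% of 3318 counts in chondrocytes (interval 16.4 to 19.002%) and 53.8% of 5176 counts in dermal fibroblasts (52.5 to 55.2%). The ratio of *Nfatc1* to *Nfatc4* counts was 1.34 in chondrocytes against 0.177 in dermal fibroblasts, which differ 7.60-fold (exact interval 6.57 to 8.79). The ratio of *Nfatc3* to *Nfatc4* counts was 3.26 and 0.661, which differ 4.93-fold (interval 4.41 to 5.51). These within-library ratios do not depend on the scaling.

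**Figure D4:**
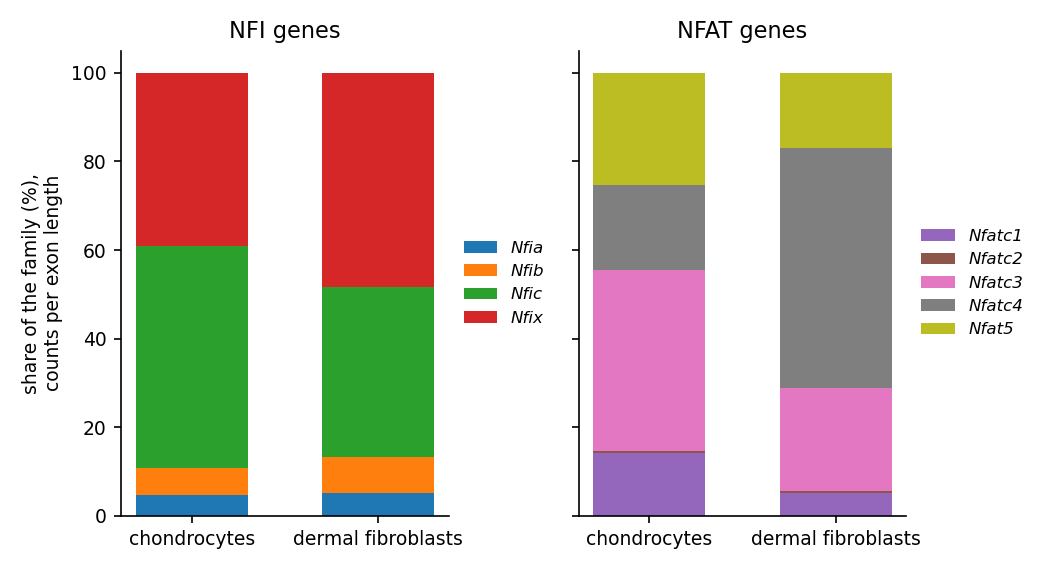
Share of each gene in the counts per exon length of its family, in percent, in the chondrocyte and the dermal fibroblast library. *Nfatc4* takes 19.4% of the NFAT family in chondrocytes against 54.2% in dermal fibroblasts, and *Nfic* takes 50.3% and 38.3% of the NFI family.

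Levels of different genes can be compared only per length, here as CPM per kilobase of exon (FPKM), with the exon lengths of GENCODE vM1. In chondrocytes the order was *Nfic* (47.5), *Nfix* (36.8), *Nfatc3* (17.2), *Nfat5* (10.6), *Nfatc4* (8.13), *Nfatc1* (5.91), *Nfib* (5.76), *Nfia* (4.32) and *Nfatc2* (0.190). The counting intervals of the neighbours *Nfatc1* and *Nfib* overlapped. In dermal fibroblasts *Nfatc4* (37.7) and *Nfix* (36.7) led with overlapping intervals, followed by *Nfic* (29.1), *Nfatc3* (16.1), *Nfat5* (11.9), *Nfib* (6.16), *Nfia* (3.85), *Nfatc1* (3.60) and *Nfatc2* (0.288), with overlapping intervals for *Nfia* and *Nfatc1*. *Nfatc4* was thus at place 5 of the 9 in chondrocytes and shared place 1 with *Nfix* in dermal fibroblasts, but these places depend on the length used. With coding lengths *Nfatc4* was at place 8 in chondrocytes (12.0 FPKM), above *Nfatc2* alone, and at place 3 in dermal fibroblasts (55.3 FPKM), below *Nfix* (173) and *Nfic* (142). With the longest transcript it was at places 7 and 2. The coding part of the exons was 1560 of 7363 bp for *Nfix* and 2735 of 4019 bp for *Nfatc4*.

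By likeness of log2 fold and log2 mean level over the 2 libraries, among 11811 genes with at least 100 counts in all, the genes nearest to *Nfatc4* were *Dnm3os* (609 and 2936 counts, distance 0.0749), *Lrrc32* (604 and 2724, distance 0.0784) and *Efemp1* (535 and 2788, distance 0.134). Those nearest to *Nfatc1*, the gene with the highest fold, were *Kdm6a* (792 and 493, distance 0.00860), *Gadd45a* (815 and 502, distance 0.0460) and *Myef2* (809 and 512, distance 0.0473). Likeness over 2 libraries is a description and tells little about these genes.

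The genes that switch the NFAT proteins on and off mostly lay within 2-fold, with the catalytic subunit of calcineurin encoded by *Ppp3ca* as an exception. Most genes of the table did so too, since 11.8% were over 2-fold higher in chondrocytes and 16.2% in dermal fibroblasts. *Ppp3ca* had 4109 counts in chondrocytes against 1293 in dermal fibroblasts and was 3.26-fold higher in chondrocytes (interval 3.07 to 3.48). The other 6 calcineurin and calmodulin genes with at least 10 counts lay within 2-fold, and the list had a median log2 fold of -0.13, beside -0.0035 for all genes. *Ppp3cb*, a second catalytic subunit, had 1241 and 1442 counts, and *Ppp3r1*, the regulatory subunit, had 2134 and 2002. *Calm2*, which encodes calmodulin, had 5616 and 4611 counts and was 1.25-fold higher in chondrocytes (interval 1.20 to 1.30). *Calm3* went the other way, with 4050 and 6181 counts, 1.49-fold higher in dermal fibroblasts (interval 1.43 to 1.55). Genes within 2-fold were thus not all equal. Per exon length, *Ppp3ca* in chondrocytes (41.6 FPKM) lay above *Ppp3cb* (11.5), while in dermal fibroblasts they were at 12.7 and 13.02.

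Of 8 calcineurin inhibitors and anchors with at least 10 counts, 1 was over 2-fold higher in chondrocytes and 1 was in dermal fibroblasts. Both were Homer scaffolds, and 11.8% and 16.2% of all genes passed the same thresholds. *Homer2* had 119 counts against 54 and was 2.26-fold higher in chondrocytes (interval 1.63 to 3.18), and *Homer3* had 269 against 656 and was higher in dermal fibroblasts by 2.37-fold (interval 2.06 to 2.75). *Rcan1*, a calcineurin inhibitor whose transcription NFAT itself drives, had 523 counts in chondrocytes against 485 in dermal fibroblasts, and its fold was 1.11 (interval 0.977 to 1.26). The anchor *Myoz2* (72 and 38 counts), 1.95-fold higher in chondrocytes, passed 2-fold with *Actb* scaling (2.12-fold) and without the 10 most abundant genes (2.01-fold). *Cabin1* (1516 and 1668 counts) and *Chp1* (1775 and 2634 counts) were the most abundant inhibitors. Among 8 genes of store-operated calcium entry, only *Itpr2*, a calcium release channel of the endoplasmic reticulum, was over 2-fold higher in chondrocytes, with 1039 and 527 counts, a fold of 2.025 and an interval from 1.82 to 2.25 that reached below 2-fold. It was 1.84-fold with total counts and 1.996-fold with the DESeq2 factors. Its relatives *Itpr1* (1156 and 850 counts) and *Itpr3* (2276 and 1894 counts) were higher in chondrocytes by less than 2-fold. All 10 genes of NFAT rephosphorylation and nuclear transport, among them the kinase *Csnk1a1* (4805 and 3953 counts) and the importin *Kpnb1* (9058 and 8315 counts), were within 2-fold with TMM scaling, with a median log2 fold of 0.02. With total counts 1 of them, the kinase *Lrrk2* (411 and 796 counts), moved from 1.89-fold to 2.07-fold higher in dermal fibroblasts. The related Rel genes were within 2-fold as well, all 5 of them, with *Rela* at 1168 and 1492 counts and *Nfkb1* at 1761 and 1566.

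**Figure D5:**
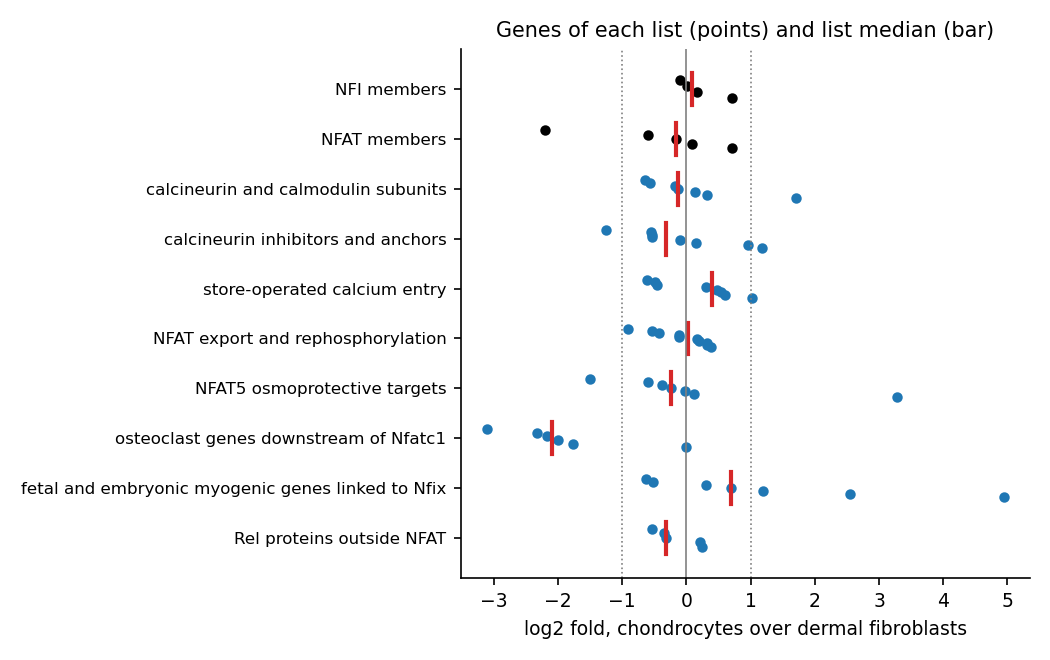
Log2 fold, chondrocytes over dermal fibroblasts, of each gene with at least 10 counts in 1 library (points), by list, with the list median (bars) and dotted lines at 2-fold. The osteoclast list has a median of -2.09, and the medians of the other lists lie between -0.32 and 0.69.

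The genes that NFAT5 is known to induce under osmotic stress mostly lay within 2-fold. Of 7 with at least 10 counts, 1 was over 2-fold higher in chondrocytes and 1 in dermal fibroblasts. Of all genes, 11.8% and 16.2% passed the same thresholds. *Slc6a12*, a betaine transporter, had 85 counts in chondrocytes against 9 in dermal fibroblasts and was 9.70-fold higher in chondrocytes (interval 4.88 to 21.9). *Hspa4l*, a heat shock protein, had 159 and 461 counts and was higher in dermal fibroblasts by 2.82-fold (interval 2.35 to 3.40). The most abundant genes of the list were the amino acid transporter *Slc38a2* (6027 and 6284 counts) and the taurine transporter *Slc6a6* (3034 and 4044 counts), both within 2-fold. Of the 8 genes listed, *Akr1b3* was listed at 0 in both libraries, and the median log2 fold of the other 7 was -0.24. How reads of *Akr1b3* were counted is not known, so the 0 does not show that the gene is silent.

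The osteoclast genes examined, not all of which act downstream of *Nfatc1*, lay mostly on the dermal fibroblast side, opposite to *Nfatc1* itself. Of 6 with at least 10 counts, 5 were over 2-fold higher in dermal fibroblasts and 0 in chondrocytes, beside 16.2% and 11.8% of all genes. *Ctsk*, a collagen-degrading protease that fibroblasts also express, had 750 counts in chondrocytes against 6644 in dermal fibroblasts and was 8.625-fold higher there (interval 7.997 to 9.31). *Itgb3* followed with 135 and 699 counts, a 5.04-fold difference (interval 4.19 to 6.11), *Mmp9* with 101 and 468 counts at 4.51-fold (3.63 to 5.65), *Atp6v0d2* with 45 and 185 counts at 4.003-fold (2.88 to 5.68) and *Tnfrsf11a* with 29 and 101 counts at 3.39-fold (2.22 to 5.32). *Acp5*, the tartrate-resistant phosphatase, was alike at 59 and 61 counts. *Dcstamp*, required for osteoclast fusion, had 0 and 9 counts, and *Calcr* was at 0 in both. The macrophage markers were also lower in chondrocytes, with 1 of 8 (*Csf1r*) over 2-fold and 8 of 8 below a fold of 1, and the part of macrophage-lineage cells in these values was not tested.

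Of 7 myogenic genes linked to *Nfix*, 3 were over 2-fold higher in chondrocytes and none (0) in dermal fibroblasts, while *Nfix* itself was equal. Of all genes, 11.8% and 16.2% passed the same thresholds. The list holds both fetal and embryonic genes, so no common direction was predicted from *Nfix*. The satellite cell factor *Pax7* had 120 counts against 4 (30.8-fold, interval 11.7 to 115), the slow myosin *Myh7* had 250 against 44 (5.84-fold, interval 4.22 to 8.23) and the muscle enolase *Eno3* had 1282 against 578 (2.28-fold, interval 2.06 to 2.52). *Myh3* (7784 and 6497 counts) and *Itga7* (1442 and 919 counts) were the most abundant and within 2-fold. Of the 10 skeletal muscle markers, chondrocytes had 5 at over 2-fold higher levels and dermal fibroblasts had 0, none was at 0 in either library, and what muscle cells contributed to the *Nfix* counts of each library was not tested.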

How the data were processed

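RNA-Seq was made from 1 library each of primary chondrocytes and primary dermal fibroblasts. Stranded mRNA libraries were read as 75 bp single ends, bases were called with CASAVA 1.8.2, and reads were mapped to mm10 with TopHat2 2.0.13, Bowtie2 2.2.3 and SAMtools 0.1.19, per the submitters' processing notes. The authors deposited a table of raw counts, whole numbers listed by gene symbol and not scaled. The program that counted, its annotation and its strand setting are not given in the sources used here. The mm10 build is GRCm38, from which RefSeq positions and promoters were taken, and NCBIM37 sequence was not used.

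Libraries were scaled by TMM (edgeR 4.0.16, R 4.3.3). Counts under 3 were set to 3 for folds. Intervals of folds are 95% Clopper-Pearson intervals of the split of reads between libraries, and those of levels are exact Poisson intervals (Python 3.11.15, scipy 1.17.1, pandas 2.3.3). With 1 library per group no edgeR or DESeq2 test could be fitted, so the 2-fold threshold of the study was used alone, without its threshold on the false discovery rate. The calculations were tested on simulated counts. Genes named are all 9 members, list genes with at least 10 counts that were over 2-fold apart, the 2 most abundant genes of each list, and the 3 nearest genes of the members with the highest and lowest fold. Other list genes, markers and neighbours on the chromosome were named after their values were seen, to give the context of a result. A gene that this rule names is not reported here. Members and lists were chosen with earlier results of these data known. The alternatives were 5 other scalings, a floor of 1 or of 10 counts, adding a pseudocount of 1, requiring 100 counts, other thresholds and other lengths.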

Additional observations from a re-analysis of the deposited data

How the results depend on the processing

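Alternatives changed 1 choice and kept the rest. No paired analysis was possible because only 1 library represents each cell type, and for that reason none could be left out. *Nfatc4* was the only gene over 2-fold higher in dermal fibroblasts, and none was over 2-fold higher in chondrocytes, under each scaling, floor, filter and pseudocount, with a fold over 4 and with the whole interval beyond 2-fold. The floors and the filter could change no member's fold, so they were no test of this. With a fold over 1.5 the counts were 2 in chondrocytes (*Nfic* and *Nfatc1*) and 2 in dermal fibroblasts (*Nfatc4* and *Nfatc2*).

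Of 80 recomputed folds of the 9 genes, 11 left the counting interval of the reported fold and 0 of the called ones changed direction. The 80 include values under the floors and the filter, which could not differ from the reported fold. The lowest count of the 9 genes, 36 for *Nfatc2* in chondrocytes, lies above both floors, and the filter only leaves genes out. Only *Nfatc4* was called. Its log2 fold, chondrocytes over dermal fibroblasts, was -2.21, too far from 0 for the scaling shifts below to reverse. The count of reversals therefore decides nothing. With total counts, which shift all log2 folds by -0.14, the folds were 0.851 for *Nfib*, 1.49 for *Nfic*, 0.912 for *Nfix*, 0.969 for *Nfatc3*, 0.197 for *Nfatc4* and 0.813 for *Nfat5*. With *Actb* counts, which shift them by 0.12, they were 1.02 for *Nfib*, 1.78 for *Nfic*, 1.09 for *Nfix*, 1.16 for *Nfatc3* and 0.972 for *Nfat5*. The direction of *Nfib*, *Nfix* and *Nfatc3* thus depends on the scaling.

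The share of *Nfatc4* in the NFAT family per exon length, 19.4% in chondrocytes against 54.2% in dermal fibroblasts, was 8.61% and 30.3% by counts, 12.0% and 39.4% with coding lengths, and 16.4% and 49.2% with the longest transcript, an alternative chosen after seeing the data. The list genes over 2-fold numbered 6 to 8 in chondrocytes and 7 to 8 in dermal fibroblasts, against 7 and 7. With TMM scaling, 11.8% and 16.2% of all genes passed the same thresholds, and nothing is read from these counts about the lists. Of 72 recomputed list medians, 0 left the range of its list's own values. In most lists that range ran from the lowest to the highest gene. It was too wide for a change of scaling to leave, so this count decides nothing. Requiring 100 counts moved the median log2 fold of the myogenic list from 0.69 to 0.94. Depth limits *Nfatc2*, whose 36 and 56 counts leave its fold anywhere from 0.422 to 1.02.

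Counting strand is unknown. RefSeq genes overlap 7 of the 9 members, mostly noncoding RNAs, and their reads cannot be told apart where strand was not used.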

Other observations

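The genes beside the members on the chromosome were read as a further description. On each side the nearest RefSeq gene with at least 10 counts that does not overlap the member was taken. This leaves out the overlapping genes *Lyl1* (7 and 21 counts, at *Nfix*) and *Esrp2* (12 and 38 counts, at *Nfatc3*). Of these 18 neighbours, chondrocytes had 2 at over 2-fold higher levels and dermal fibroblasts had 5. Of all genes with at least 10 counts in 1 library, 11.8% and 16.2% passed the same thresholds. A link between the folds of members and neighbours was not tested. *Ripk3*, 35938 bp before *Nfatc4*, had 575 counts in chondrocytes against 1777 in dermal fibroblasts and was 3.01-fold higher there, the same side as *Nfatc4*. *Nynrin*, 20172 bp after it, had 1231 and 1775 counts and was 1.40-fold higher in dermal fibroblasts. *Nqo1*, an oxidative stress enzyme 8708 bp after *Nfat5*, had 2279 counts in chondrocytes against 240 in dermal fibroblasts and was 9.75-fold higher in chondrocytes, whereas *Nfat5* itself had a fold of 0.893. *Atp9a*, 32781 bp from *Nfatc2*, was 4.29-fold higher in dermal fibroblasts (351 and 1547 counts).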
